A study of Mus musculus with 4 samples.

Results

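The 10 genes described here are 3 Notch receptors (Notch1, Notch2 and Notch3), 3 of their ligands (Jag1, Jag2 and Dll1) and 4 genes that Notch signalling switches on (Hes1, Hey1, Heyl and Nrarp). They were taken by symbol from a table of 22186 mouse genes, and all 10 were listed. The cells were MC38, a mouse line labelled as colon cancer, stably carrying TetOn-CXCL14, a construct that expresses CXCL14 from a tetracycline-inducible promoter and that all libraries share. The control group was 2 libraries from cultures given the solvent PBS, and the DOX group was 2 libraries from cultures given 1 µg/mL doxycycline, the drug that switches the promoter on. Both were harvested after 72 h, and the series text describes the libraries of a group as biological replicates. The sources used here do not say whether the line is 1 clone, and no library had doxycycline without the construct.

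Notch receptors are transmembrane proteins bound by Jagged and Delta-like ligands on neighbouring cells. Binding opens the receptor to cleavage by an ADAM protease and then by gamma-secretase, and the freed intracellular domain enters the nucleus. There it joins the DNA-binding protein RBPJ and a Mastermind coactivator to switch on target genes, among them the HES and HEY repressors and Nrarp, a feedback inhibitor of the pathway. In the intestine the pathway is known for keeping progenitor cells undifferentiated and for directing them to the absorptive rather than the secretory fate.

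Levels are in TPM, a share of all transcripts corrected for gene length, so levels of different genes can be compared. Read counts were not given, so the depth behind each value is unknown. Genes averaging 1 TPM or more across the 4 libraries entered a limma test on log2(TPM + 1), a scale that understates the change of low genes, and were called at an adjusted p under 0.05. Cxcl14 itself measured 27.3 and 29.2 TPM without doxycycline, against 385 and 391 TPM with it. Markers of colon epithelium were nearly absent: all 12 were below 1 TPM in every library, with Cdh1, Krt19, Cdx1 and Cdx2 listed at 0. Of 8 fibroblast markers, Dcn and Pdgfra were abundant, and the list summed to 3430 to 3622 TPM in the controls and 493 to 523 TPM after doxycycline. Dcn and Pdgfra made up nearly all of that sum: Col1a1 did not pass (2.29 ± 0.204 and 2.70 ± 0.969 TPM, limma adjusted p = 0.52), and 4 of the 8 were below 1 TPM in every library, with Thy1 at 0. Of 10 endothelial markers, Kdr, Cldn5 and Erg were listed at 0, and the list summed to 1.51 to 1.59 TPM in the controls and 0.596 to 0.714 TPM after doxycycline. For 10 macrophage markers the sum was 7.43 to 8.41 and 5.01 to 5.29 TPM, nearly all of it Cd68, with Laptm5, C1qa and C1qc at 0. For 10 smooth muscle and pericyte markers it was 63.7 to 73.4 and 42.8 to 48.4 TPM, most of it Cspg4, with 7 below 1 TPM in every library and Kcnj8 at 0. Acta2, also on that list, rose from 0.547 and 1.12 to 3.98 and 3.50 TPM (limma adjusted p = 1.6e-04), while Cspg4 and Mcam fell. Acta2 averaged 0.833 TPM in the controls and Mcam 0.825 TPM after doxycycline, so each reached the level for testing through its higher group. The part that these lists play in the values below was not tested. In bulk RNA, fewer cells of a type and less RNA per cell cannot be told apart.

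The promoters of Notch1, Notch2, Jag1 and Nrarp, from the RefSeq table (build GRCm38.p6), are shown because these are the best expressed members with an entry there and because the pathway feeds back on its own genes. Each is the 250 bases before the start, 5′ to 3′ on the gene's strand, and capitals mark letters bound by HES repressors: the N box CACNAG and the class C site CACGCG, on either strand. The windows lie at chr2:26503823-26504072 (minus strand) for Notch1, chr3:98013288-98013537 (plus) for Notch2, chr2:137116521-137116770 (minus) for Jag1 and chr2:25180508-25180757 (plus) for Nrarp.
Notch1: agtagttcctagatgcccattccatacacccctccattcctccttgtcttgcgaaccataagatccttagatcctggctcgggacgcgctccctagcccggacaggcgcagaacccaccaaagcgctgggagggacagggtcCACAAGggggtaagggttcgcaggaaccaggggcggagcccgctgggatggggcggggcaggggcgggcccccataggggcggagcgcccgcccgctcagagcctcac
Notch2: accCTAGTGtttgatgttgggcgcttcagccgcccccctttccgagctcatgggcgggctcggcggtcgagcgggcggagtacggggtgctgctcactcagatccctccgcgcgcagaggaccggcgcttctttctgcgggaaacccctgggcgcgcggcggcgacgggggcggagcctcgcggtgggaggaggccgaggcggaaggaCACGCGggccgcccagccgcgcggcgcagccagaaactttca
Jag1: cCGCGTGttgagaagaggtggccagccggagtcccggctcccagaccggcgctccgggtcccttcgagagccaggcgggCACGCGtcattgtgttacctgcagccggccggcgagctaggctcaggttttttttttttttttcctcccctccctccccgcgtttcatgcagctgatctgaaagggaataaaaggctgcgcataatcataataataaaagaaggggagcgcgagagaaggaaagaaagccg
Nrarp: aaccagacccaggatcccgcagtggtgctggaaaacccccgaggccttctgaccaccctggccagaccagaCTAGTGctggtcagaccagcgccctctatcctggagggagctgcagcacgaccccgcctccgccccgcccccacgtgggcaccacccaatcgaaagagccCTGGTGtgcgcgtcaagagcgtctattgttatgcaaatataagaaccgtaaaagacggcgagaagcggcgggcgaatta

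The table held 8 promoters of 7 members, since Dll1 has a pair of starts; Hes1, Hey1 and Heyl had no entry. The N box was found in 4 of the 8 windows, against 36.7% of all 32851 promoters searched over the same length. The class C site was found in 3 of the 8, against 7.62% of all promoters. Notch2 alone of the 8 held both, a class C site beginning 42 bases before the start and an N box beginning 247 bases before it, and no matches overlapped. Jag1 held the class C site at 249 and 171 bases before the start, and Nrarp the N box at 179 and 79. The core letters of the RBPJ site, TGGGAA, were in 0 of the 8 windows and in 21.6% of all promoters. The member windows were 56.0% to 87.2% G or C, against a median of 52.4% over all promoters. These are letter matches only.

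The 2 receptors that could be tested fell. Notch2 was the main receptor and Notch1 the next, and both were lower in each doxycycline library than in either control. Notch2 measured 52.3 and 47.8 TPM without doxycycline, against 29.9 and 26.6 TPM with it. That is a fall from 50.1 ± 3.21 to 28.3 ± 2.38 TPM (SD, n = 2), with a log2 fold change of -0.80 (SE 0.08, limma adjusted p = 3.3e-05). Notch1, the receptor with the longest record as an oncogene in T cell leukaemia, measured 7.59 and 7.44 TPM without doxycycline, against 2.53 and 2.17 TPM with it. Its mean went from 7.51 ± 0.108 to 2.35 ± 0.253 TPM, 31.3% of the control level, with a log2 fold change of -1.35 (SE 0.13, limma adjusted p = 1.6e-05). The groups lay far apart relative to the spread within them for both receptors. Notch3, a receptor typical of vascular smooth muscle and also on the pericyte marker list above, was barely detected. It measured 0.161 and 0.178 TPM without doxycycline, against 0.0527 and 0.0297 TPM with it. Notch4, an endothelial receptor outside the 10 genes, measured 0.472 and 0.373 TPM without doxycycline, against 0.248 and 0.232 TPM with it.

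The makeup of the receptor pool also differed between the groups, with no overlap for Notch1 or Notch2. The 4 receptors summed to 60.6 and 55.8 TPM without doxycycline, against 32.8 and 29.0 TPM with it. Notch2 made up 86.4% and 85.7% of that sum without doxycycline, against 91.4% and 91.6% with it. Notch1 went from 12.5% and 13.3% to 7.73% and 7.50%. Notch3 made up at most 0.319% and Notch4 at most 0.80%, so these shares mirror each other and are 1 observation. The log2 ratio of Notch1 to Notch2 within a library, which a single scaling factor per library cannot alter, was -2.73 ± 0.07 in the controls and -3.59 ± 0.03 after doxycycline (SD, n = 2). Notch1 was therefore lower relative to Notch2 in both doxycycline libraries than in both controls. For this ratio and the 2 below, Hes1 and Jag1 against Notch2, an exact two-sided permutation test gave p = 0.33, the smallest that 2 against 2 libraries can give, so 0 of the 3 could pass.

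**Figure D1:**
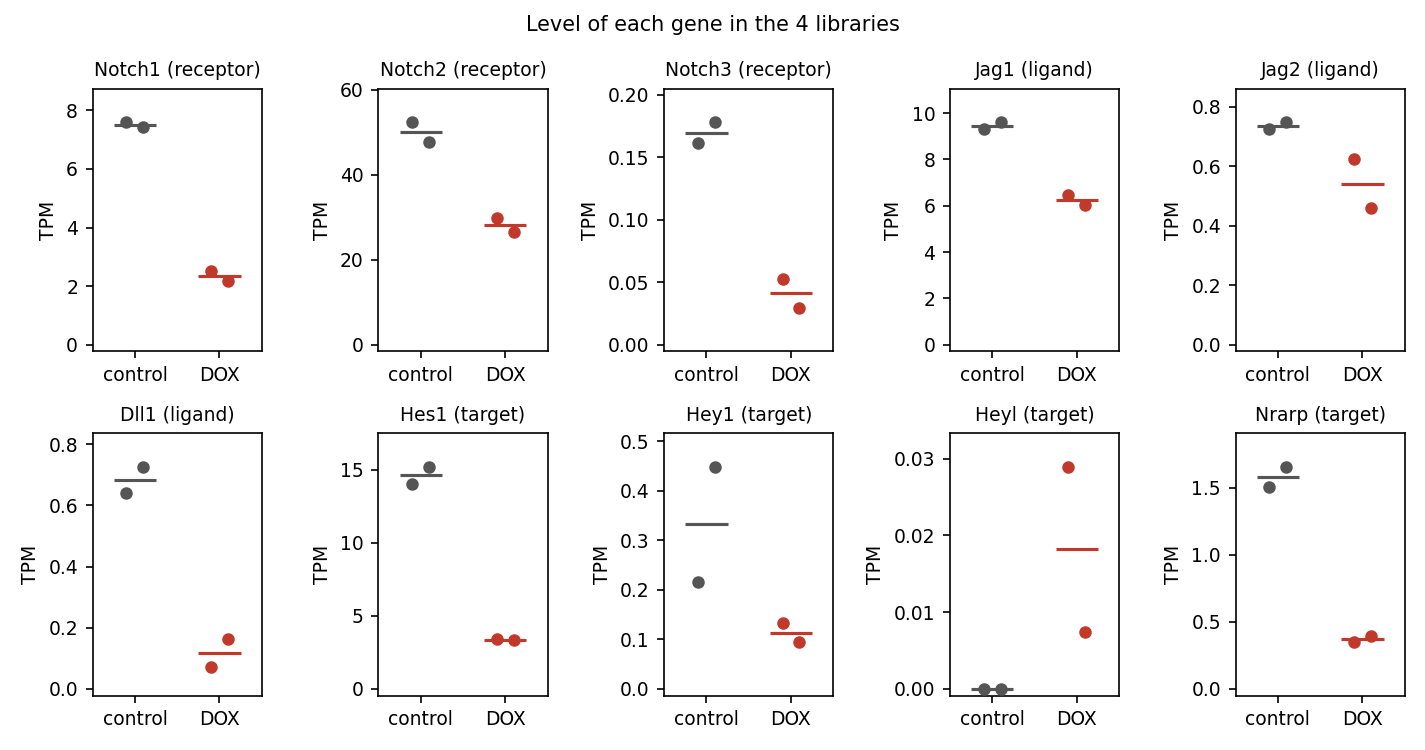
TPM of each of the 10 genes in the 2 control libraries (grey) and the 2 doxycycline libraries (red), with a line at each group mean and a separate axis from 0 for each gene. In 9 genes both red points lie below both grey points, and Heyl, near 0 throughout, is the exception. The scales differ, with a highest value of 52.3 TPM for Notch2 and 0.029 TPM for Heyl.

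Among the ligands, Jag1 fell and was the only one of the 3 above 1 TPM. Jag1 measured 9.29 and 9.60 TPM without doxycycline, against 6.47 and 6.04 TPM with it, with a log2 fold change of -0.53 (SE 0.11, limma adjusted p = 0.0019). The groups did not overlap, but quantile normalization ended this call, with a log2 fold change of -0.25 and a limma adjusted p of 0.062; over all 14 alternatives adjusted p ran from 0.0014 to 0.062. Against Notch2, Jag1 was not lower: the log2 ratio of Jag1 to Notch2 was -2.49 and -2.32 without doxycycline, against -2.21 and -2.14 with it. Dll1, a Delta-type ligand, measured 0.641 and 0.726 TPM without doxycycline, against 0.0704 and 0.165 TPM with it, so its level after doxycycline was 17.2% of that in the controls. Jag2 measured 0.725 and 0.747 TPM without doxycycline, against 0.624 and 0.459 TPM with it, a smaller gap. Jag1 made up 86.6% and 86.3% of the summed TPM of 5 ligands without doxycycline, against 88.3% and 89.5% with it, while Dll1 went from 5.98% and 6.53% to 0.961% and 2.44%. Dll3 and Dll4, the ligands that complete the set, were at most 0.117 TPM in any library.

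Hes1 gave the largest change of the tested members. This basic helix-loop-helix repressor is the classic Notch target of the gut, and represses genes of the secretory lineage. Hes1 measured 14.0 and 15.2 TPM without doxycycline, against 3.42 and 3.32 TPM with it. Its mean fell from 14.6 ± 0.848 to 3.37 ± 0.0685 TPM (SD, n = 2), 4.34-fold, with a log2 fold change of -1.84 (SE 0.11, limma adjusted p = 8.8e-07). Relative to Notch2 its log2 ratio was -1.90 and -1.65 without doxycycline, against -3.13 and -3.00 with it, so Hes1 was lower relative to this receptor in both doxycycline libraries. Nrarp, the feedback inhibitor that binds the Notch intracellular domain, showed a fold difference of like size at a lower level. It measured 1.51 and 1.66 TPM without doxycycline, against 0.354 and 0.392 TPM with it, 4.24-fold. The mean of its 4 values, 0.978 TPM, left it just under the level for testing.

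The HEY genes were close to undetected in these cells. Hey1, a target prominent in blood vessels and heart, measured 0.215 and 0.449 TPM without doxycycline, against 0.132 and 0.0954 TPM with it. The 2 controls differed from each other more than the lower control differed from the doxycycline libraries. Heyl, a relative of Hey1, was listed at 0 in both controls and at 0.029 and 0.00743 TPM after doxycycline, and Hey2 was listed at 0 in all 4 libraries. Of the other HES genes, Hes2, Hes3, Hes5 and Hes7 had a highest value of 0.808 TPM, and Hes6, which opposes Hes1, was the only further one tested.

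**Figure D2:**
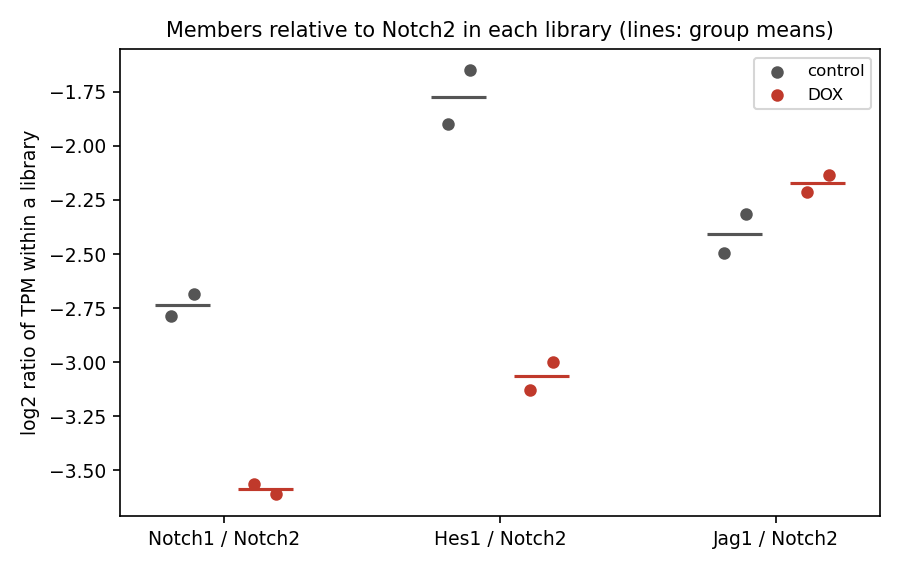
Log2 ratio of TPM of Notch1, Hes1 and Jag1 to Notch2 within each of the 4 libraries, with control libraries in grey, doxycycline libraries in red and lines at the group means. For Notch1 (means -2.73 and -3.59) and Hes1 (-1.78 and -3.06) the doxycycline libraries lie below the controls, and for Jag1 (-2.41 and -2.17) they lie above.

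Counted over the 10 genes, 4 could be tested, and by limma all 4 fell and 0 rose (0 also at an unadjusted p under 0.05). Of all 11359 genes tested, 35.4% were called lower and 29.0% higher, so a fall was common in these libraries. The tested members had a median log2 fold change of -1.08, against -0.04 for all genes tested. A lower log2 fold change than that of Hes1 was found for 1.89% of the tested genes, and the shares were 4.20% for Notch1, 11.7% for Notch2 and 19.8% for Jag1. Both doxycycline libraries lay below both controls in 9 of the 10 genes and above them in 1, Heyl. The same separation was found downward in 39.2% and upward in 30.0% of the 16252 genes above 0 in at least 1 library. With no filter on low values, limma called 7 of the 10 lower and 0 higher, against 25.2% lower among all genes so tested. Those added were Nrarp (log2 fold change -0.91, adjusted p = 0.0013), Dll1 (-0.59, adjusted p = 0.0035) and Notch3 (-0.17, adjusted p = 0.036). Dll1 and Notch3 were below 1 TPM in every library, and Nrarp was below it in both doxycycline libraries. The share of 25.2% also covers genes averaging below 1 TPM. Under the same setting Hey1 (-0.25, adjusted p = 0.10), Jag2 (-0.17, adjusted p = 0.15) and Heyl (0.03, adjusted p = 0.64) did not pass.

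**Figure D3:**
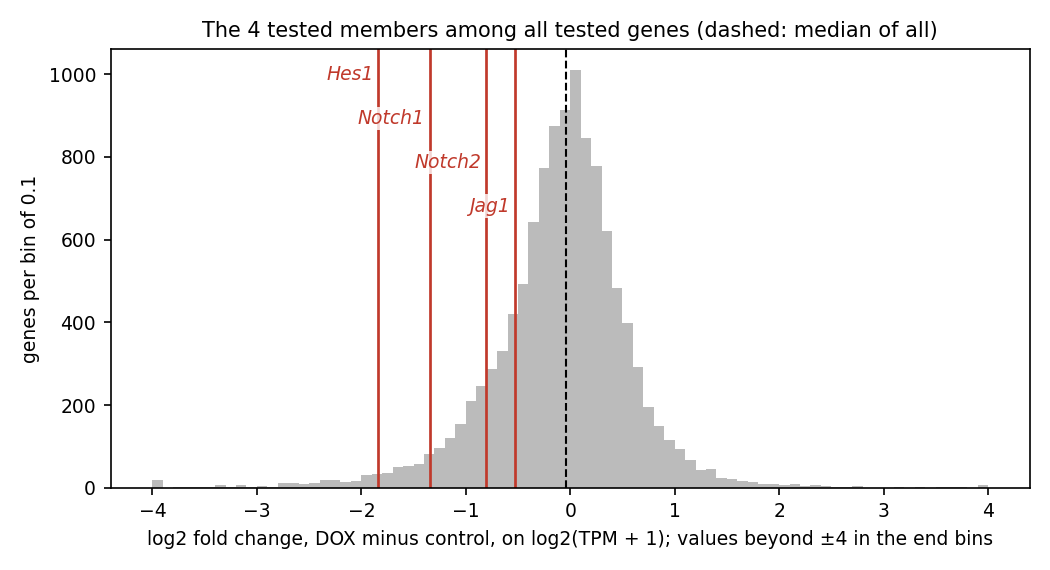
Histogram of the log2 fold change (doxycycline minus control, on log2(TPM + 1)) of all 11359 tested genes, with red lines at the 4 tested members and a dashed line at the median of all genes, -0.04. The members lie on the falling side, at -1.84 (Hes1), -1.35 (Notch1), -0.80 (Notch2) and -0.53 (Jag1).

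By a rule of distance, the genes most like Hes1 over the 4 libraries were sought among all tested genes. The nearest centred profiles of log2(TPM + 1) were those of Klk1b27 (Euclidean distance 0.06), Mxd3 (0.06) and Tent5a (0.07). Their log2 fold changes were -1.79, -1.88 and -1.84, against -1.84 for Hes1. With 2 libraries per group and little spread within them, such a profile is mostly the group difference. Shared regulation was not tested. Klk1b27 is a kallikrein-related serine protease of a family of near-identical genes, so its value is uncertain, and it went from 22.8 ± 1.83 to 5.86 ± 0.160 TPM (SD, n = 2). Mxd3, a partner of MAX in the MYC network, went from 21.6 ± 0.669 to 5.14 ± 0.111 TPM. Tent5a, a poly(A) polymerase, went from 28.0 ± 1.91 to 7.10 ± 0.493 TPM.

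Beyond the 10 genes, 66 further genes of the pathway were listed and 51 could be tested, of which 11 rose, 24 fell and 16 did not pass. Their median log2 fold change was -0.17. Leaving out control replicate 2 cut the rises to 6, with 23 falls, and testing without a filter gave 7 rises and 24 falls. For reference, 64.4% of all genes tested were called in either direction, 35.4% lower and 29.0% higher. The counts by list below are small and are to be read beside these shares.

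Of the proteases that cut the receptor, those acting before gamma-secretase fell. Furin, which makes the first cut during transport to the surface, fell from 188 ± 5.23 to 89.0 ± 1.97 TPM (log2 fold change -1.07, limma adjusted p = 6.1e-07). Adam17, an ADAM protease also known for releasing TNF, fell from 306 ± 7.10 to 147 ± 1.55 TPM (log2 fold change -1.05). Its exons overlap those of Iah1 on the opposite strand, which went from 176 and 147 TPM to 282 and 290 TPM, and whether counting used the strand is not given in the sources used here. Adam10, the protease best known for ligand-induced Notch cleavage, fell from 96.0 ± 0.690 to 66.7 ± 1.16 TPM (log2 fold change -0.52). Of the gamma-secretase subunits, Psen2 (log2 fold change 0.17), Ncstn (-0.04) and Aph1a (0.10) did not pass, while Aph1b fell (-0.68) and Psenen rose (0.20). The Psenen call (limma adjusted p = 0.033) was lost without control replicate 2 (0.17) or DOX replicate 1 (0.17), with no filter (0.085), with no mean-variance trend (0.083) and under quantile normalization (0.10). Psenen also overlaps exons of U2af1l4 on the opposite strand, which went from 33.9 and 26.8 to 45.4 and 48.9 TPM. In all, 1 of the 9 tested cleavage genes rose and 4 fell, with a median of -0.04.

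Of the genes that put sugars on the receptor, 1 of 5 tested rose and 3 fell (median log2 fold change -0.28). The Fringe enzymes Lfng and Rfng, which tune the response to Jagged and Delta ligands, fell with log2 fold changes of -0.47 and -0.36, and Eogt with -0.28. The Lfng call was lost with any of 3 libraries left out, control replicate 1 (limma adjusted p = 0.13), DOX replicate 1 (0.050) or DOX replicate 2 (0.11), and under quantile normalization (0.46). That of Eogt was lost without control replicate 2 (0.084) or DOX replicate 2 (0.14), and under quantile normalization (0.11). Pofut1, the O-fucosyltransferase that most Notch signalling requires, measured 42.0 and 39.6 TPM without doxycycline, against 41.5 and 39.4 TPM with it.

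In the nuclear complex the members split. Rbpj, the DNA-binding partner of Notch, rose slightly, from 365 and 381 to 435 and 442 TPM (a log2 fold change of 0.23 with a limma adjusted p of 0.0072). That call was lost without DOX replicate 2 (limma adjusted p = 0.054) and under quantile normalization (0.16, where the change was 0.10). The Mastermind coactivators went different ways. Maml3 fell from 3.18 and 3.77 TPM to 0.608 and 0.494 TPM (log2 fold change -1.53). Its mean after doxycycline was 0.551 TPM, so it reached the level for testing through its controls. Maml2 fell from 7.60 and 8.14 TPM to 3.88 and 3.87 TPM (-0.86), whereas Maml1, the most abundant of the 3, rose from 33.3 ± 0.302 to 44.5 ± 0.910 TPM (0.41). The acetyltransferase Kat2b fell from 74.1 ± 0.205 to 39.3 ± 0.0812 TPM. The acetyltransferases Kat2a (log2 fold change 0.28) and Crebbp (0.23) rose, and Ep300 (-0.03) did not pass. Altogether 4 of the 9 tested rose and 3 fell (median 0.10).

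Corepressors that hold target genes silent gave 3 rises and 6 falls among 12 tested (median log2 fold change -0.21). Tle2, a Groucho-type corepressor, had the largest change, from 32.4 and 34.7 to 7.01 and 5.23 TPM (a log2 fold change of -2.29 with a limma adjusted p of 5.4e-07). Its relative Tle1 rose from 12.4 and 9.26 TPM to 20.0 and 19.3 TPM (0.82), and the histone deacetylase Hdac1 fell from 379 ± 3.91 to 246 ± 11.0 TPM (-0.62). Spen, which joins RBPJ to the silencing machinery, fell with a log2 fold change of -0.37, a call lost under quantile normalization (limma adjusted p = 0.075).

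Among 11 tested genes of receptor and ligand trafficking, 1 rose and 5 fell (median log2 fold change -0.21). Neurl1b, a ubiquitin ligase for ligands, fell from 38.2 ± 1.48 to 21.9 ± 2.34 TPM (log2 fold change -0.78). Numbl and Numb, relatives of the Notch inhibitor Numb of the fly, fell with log2 fold changes of -0.75 and -0.31, and Dtx3 with -0.61. The Numb call was lost without DOX replicate 2 (limma adjusted p = 0.065) and under quantile normalization (0.073). Mib1, the ligase that ligand activity most depends on, did not pass (0.13, limma adjusted p = 0.14).

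The wider targets, which many other signals also control, went both ways: of 5 tested outside the 10 genes, 1 rose and 3 fell. Ccnd1, which encodes cyclin D1, fell from 459 ± 26.0 to 297 ± 27.0 TPM (log2 fold change -0.63), and Hes6 from 17.6 ± 1.68 to 10.4 ± 1.25 TPM (-0.71). Cdkn1a, a cell cycle inhibitor, fell with a log2 fold change of -0.42. Myc went the other way to Hes1, with a log2 fold change of 1.74.

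**Figure D4:**
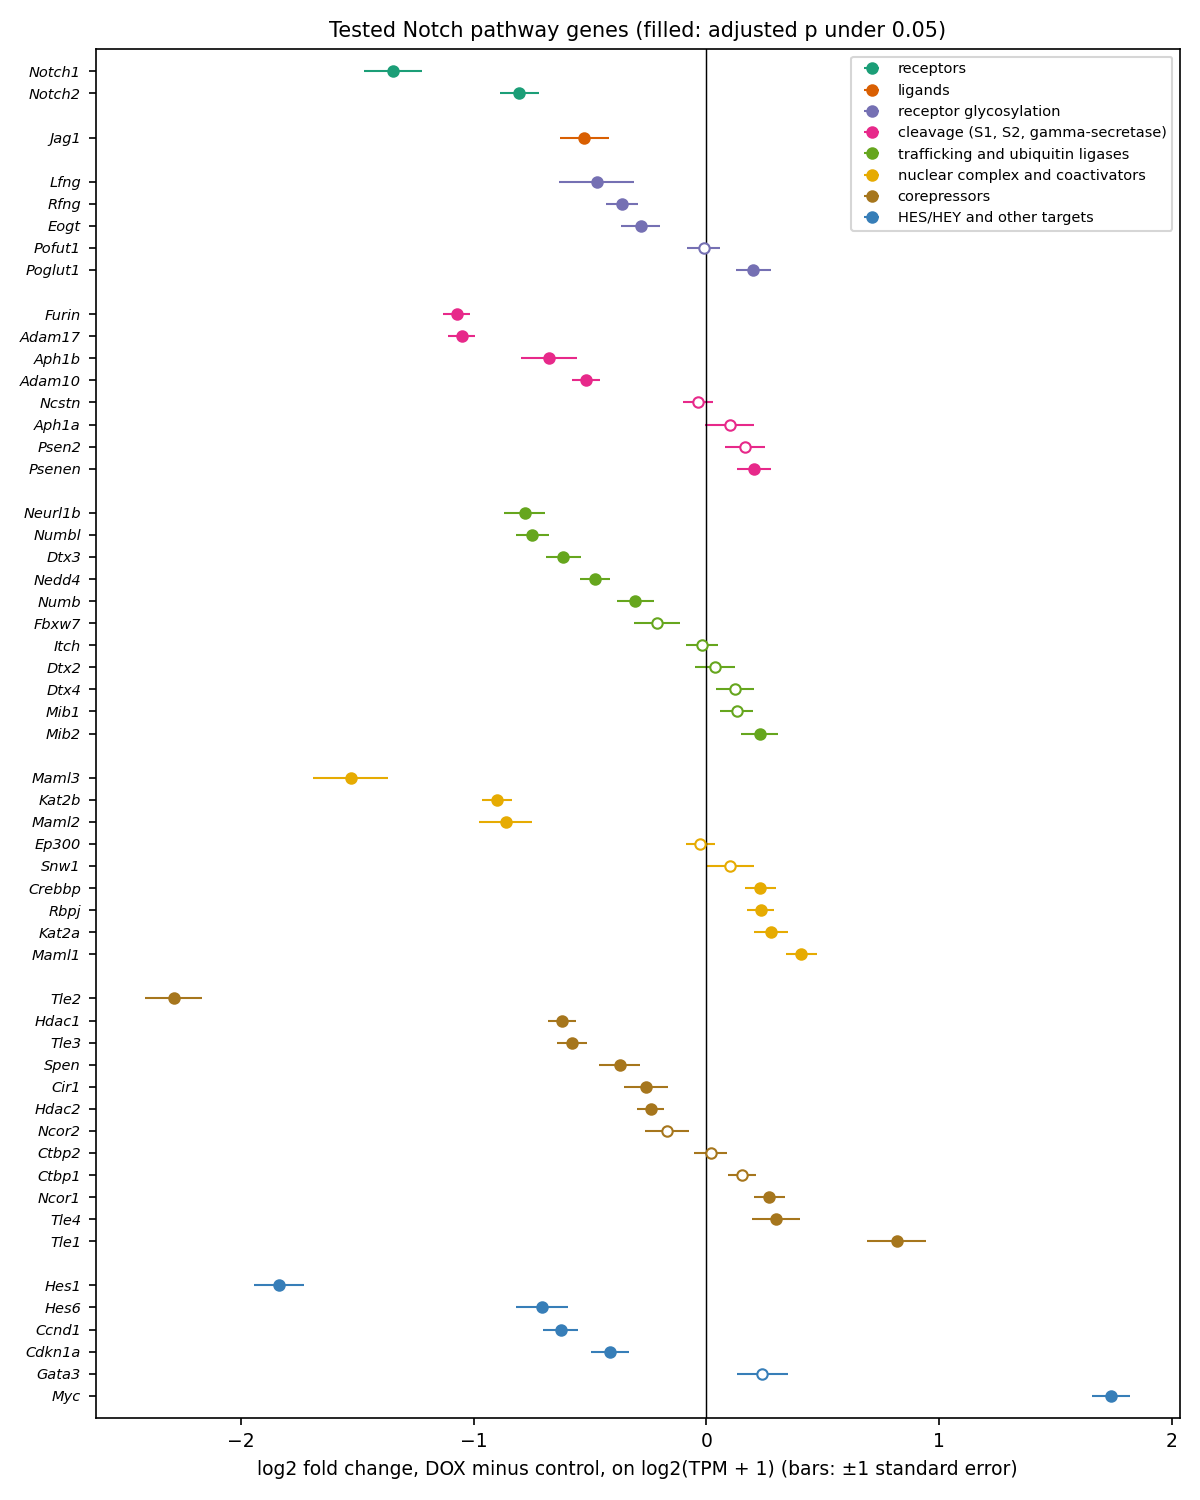
Log2 fold change (doxycycline minus control, on log2(TPM + 1)) of the tested Notch pathway genes, except 1 cleavage gene that is not shown, ordered within its list, with bars of 1 standard error; filled points passed at an adjusted p under 0.05 and open points did not. Hes1 (-1.84), Notch1 (-1.35), Maml3 (-1.53) and Tle2 (-2.29) stand far to the left, Myc (1.74) far to the right, and the gamma-secretase genes Ncstn (-0.04) and Aph1a (0.10) near 0.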

How the data were processed

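RNA was measured in 4 libraries, 2 per group by their titles, made with an mRNA kit per the labels' protocols. The authors deposited TPM and FPKM per gene, per the file headers and names. Genome build mm39 comes from the submitters' processing notes; the sources used here give no aligner, quantifier or annotation. Both deposited units carry the same estimates: TPM divided by FPKM gave 1 fixed number per library (3.08 to 3.14).

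Genes averaging 1 TPM or more were tested on log2(TPM + 1) with limma 3.58.1 (eBayes with trend) in R 4.3.3, with Benjamini-Hochberg adjustment over 11359 genes and no covariate. The fit was tested on simulated data, where it recovered 16 of 50 changes of 0.5 log2 and 43 of 50 changes of 1 log2. Of its 160 calls, 2 were false. Far fewer genes changed there than were called in the data (64.4%), so its adjusted p values are not on a like footing. With 2 residual degrees of freedom, calls lean on the spread limma shares across genes. Alternatives changed the pseudocount (0.1, 0.5), filter (none, 5 TPM), unit (FPKM), scaling (median-of-ratios, quantile), variance model and replicate block, and left out each library. Leaving out a library left 1 in its group, so calls kept or lost there rest on the other group and the shared spread. The 10 genes, the pathway and marker lists and the tests were chosen with earlier results of these data known. Named are all 10 genes, per list up to 3 passing genes with the largest change, the 3 nearest profiles to Hes1, and Cxcl14; other list members were named after their values were seen. Blastn 2.17.0 searched GENCODE M21 transcripts for copies of the 10 genes (97% identity over 100 bases). The other genes it found were 0610009E02Rik and Gm13568 (Notch1), Gm42820 (Notch2), Gm17276 (Notch3), A930024N18Rik (Dll1) and Gm38287 (Nrarp). All overlap the gene itself, Gm42820 on the same strand and the rest on the opposite strand, and none is listed in the table. The values of Notch1, Notch2, Notch3, Dll1 and Nrarp are uncertain to the extent that such overlaps share reads. GENCODE M21 and the RefSeq promoters are of an earlier build than mm39, and no coordinates were converted. Among the other pathway genes named, exon overlaps there touch Furin, Adam17, Eogt, Numb, Numbl, Maml1, Maml2, Tle1, Tle2 and Ccnd1. They also touch Psenen, Spen, Ncstn, Aph1a, Cdkn1a, Ep300, Dll4, Hes5 and Hes7. The values of all these genes are uncertain to that extent. Cxcl14, the nearest profiles to Hes1 and the marker genes outside the 10 were not searched for overlaps. The list counts include 1 cleavage gene whose own values are not reported here.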

Additional observations from a re-analysis of the deposited data

How the results depend on the processing

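Over the 14 alternatives, the log2 fold changes of Notch1 (-1.64 to -0.95, 13 alternatives that tested it), Notch2 (-0.89 to -0.72) and Hes1 (-2.08 to -1.44) stayed past the threshold. Jag1 (-0.59 to -0.25) lost its call under quantile normalization. Of 33 genes recomputed, 26 kept their call under every alternative that tested them. The exceptions were Jag1, Lfng, Eogt, Psenen, Rbpj, Spen and Numb. Kat2a, Crebbp and the marker genes named with a call (Acta2, Cspg4 and Mcam) were not recomputed. Without a filter the members called lower numbered 7 instead of 4, and the other pathway genes called higher 7 instead of 11. Leaving out 1 library at a time, 4 members were called lower each time, the other pathway genes called higher ranged from 6 to 11, and those called lower from 20 to 23. A mean of at least 5 TPM left 3 members called lower, since Notch1 was then not tested. Median-of-ratios and quantile scaling raised the median log2 fold change of all genes by 0.04 and 0.09. The titles share replicate numbers but nothing says that a number marks a shared culture, and the deviations of same-numbered libraries correlated at -0.01 over 11359 genes. With a replicate block, 4 members were lower and 0 higher, and 12 other pathway genes were higher and 25 lower. Depth is unknown, so the precision of values below 1 TPM is too.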
